A study of Ovis aries with 60 samples.

Results

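The distal block of sheep chromosome 6 is a stretch of 5 Mb near the end of that chromosome on the Oar_rambouillet_v1.0 build, whose outermost CG cytosines in F0 are at 114037987 and 118973468. Its members are all cytosines between the round positions enclosing these for which the deposited tables give reads. In F0 these were 375 CG, 2483 CHG and 9503 CHH cytosines, 12361 of 11381242 in all. In F1 the block held 11563 of 10672868 listed cytosines, and in F2 it held 7888 of 7423052. Over the 3 generations together it held 17105 cytosines, of which 89 CG, 786 CHG and 3307 CHH were listed in every generation. The block was selected on the measured methylation differences between the diet groups at cytosines in it, so its diet differences and the calls made on them describe the contrast that chose it and are no test of the block.

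Semen was collected from sheep of 3 generations after a methionine diet of the founding rams. The F0 treated group was 5 rams (numbers 3, 5, 9, 11 and 23) whose control diet was topped with encapsulated methionine (0.22%, 1.5 g) between weaning and puberty, and the F0 control group was 5 rams (numbers 4, 6, 10, 12 and 24) on the control diet alone. The 10 rams were 5 male twin pairs split between the diets, and the labels do not say which ram was the twin of which. Each F0 ram was mated to untreated Polypay ewes. F1 sperm was sequenced in 10 pools, 5 per diet, labelled with F0 ram numbers, so an F1 level is an average over several rams, whose number per pool is not stated. For F2, 1 F1 son of each F0 ram was mated to untreated ewes, and 2 F2 rams per F0 ram, 10 per diet group, were sequenced singly. All F1 and F2 animals ate the control diet, and "treated" below always means the diet of the F0 ram. RNA of F2 semen was also sequenced, in 20 libraries.

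Bisulfite turns unmethylated cytosines into bases read as thymine, and the methylation level is the share of reads at a position in which the cytosine was kept. In mammals methylation sits mostly on cytosines followed by guanine (CG), and sperm carries high levels of it over most of the genome outside promoters. CHG and CHH cytosines, where H is any base but guanine, are nearly always unmethylated in differentiated mammalian cells. In a ram or pool a level is thus a share of reads from many cells of semen. The lysis of somatic cells is described for the RNA samples only, and the part of cells other than sperm in the levels was not tested. A thymine already in the DNA at that position would be read as an unmethylated cytosine. The read counts cannot tell these apart, and the part of sequence differences in the levels below was not tested.

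Over the block, reads on CG cytosines ran from 7938 to 12997 per F0 ram, from 6737 to 12877 per F1 pool and from 1752 to 4933 per F2 ram. Median CG coverage per sample lay at 18 to 32 reads in F0, 15 to 32 in F1 and 12 to 36 in F2. All listed cytosines had 10 reads or more in each sample of a generation, so levels come in steps of 10.0 points or finer. No CG in the block was listed on both strands, so no level could be set beside that of the opposite strand. Of the called cytosines described below, 36 of 55 lay on the minus strand, where 55.9% of all listed cytosines of the block lay.

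The mean CG level of the block was high in all samples and close between the diet groups. In F0 it was 80.1% ± 1.83 (SD, n = 5) in treated rams and 80.9% ± 0.486 in control rams, a difference of -0.82 points. F1 pools gave 80.3% ± 1.02 in the treated and 81.1% ± 1.54 in the control group (n = 5 each), a difference of -0.79 points. F2 rams gave 84.8% ± 3.25 in the treated and 84.0% ± 3.45 in the control group (n = 10 each), a difference of 0.84 points. The SD within groups, taken over both, was 1.34, 1.31 and 3.35 points, larger than the difference in each generation, while in F0 the control SD alone was smaller than it. With at least 20 reads in every sample the sign turned in F0 (0.18 points) and in F2 (-0.71 points). The mean over the block was above that over all listed CG cytosines in 10 of 10 F0 rams, 10 of 10 F1 pools and 20 of 20 F2 rams, and the mean over all listed CG cytosines was 74.2% for F0, 73.8% for F1 and 70.7% for F2. The lowest F2 means were those of the pair descending from control ram 24 (77.7% and 78.0%) and of 1 ram descending from treated ram 3 (78.9%). The ram at 77.7% also had the fewest CG reads in the block of all F2 rams, 1752.

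Generation was not used to choose the block. The block shared 288 CG cytosines between the F0 and F1 tables. Over them the mean level was 80.7% ± 1.40 (SD, n = 10) in F0 rams and 80.4% ± 1.44 in F1 pools, a difference of -0.25 points (two-sided permutation test, p = 0.699). The pool was higher than the ram of its number in 5 of 10 numbers. Without number 3 the difference was 0.08 points, so its sign rests on that family.

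Outside CG the block was almost unmethylated. The mean CHH level was 0.414% ± 0.0269 in F0 treated and 0.425% ± 0.0248 in F0 control rams (SD, n = 5 each), and in F2 it was 0.581% ± 0.0340 and 0.580% ± 0.0472 (n = 10 each). In F0, 9324 of 9503 CHH cytosines were under 10% in every ram, and 4649 had no methylated read in any ram. Against this floor, 38 CHH cytosines reached 20% in at least 1 F0 ram, as did 38 in F1 pools and 48 in F2 rams. No listed CHH cytosine was above 50% in every ram of F0 or of F2, while 2 were above 50% in every F1 pool.

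Differentially methylated cytosines (DMCs) were called at a difference of at least 20 points between the reads summed over each group and an adjusted p of at most 0.01, taken over all listed cytosines of the context and generation. In F0 the block held 21 CG DMCs of 375, where 1.82% of all listed CG cytosines were called. Of these 11 were higher and 10 lower in treated rams, where 0.770% and 1.05% of all CG were. F0 CHH DMCs numbered 12 of 9503 (0.0145% of all CHH), 7 higher and 5 lower (0.00656% and 0.00791% of all). F0 CHG gave 1 DMC of 2483, where 0.0142% of all CHG were called, 0.00653% higher and 0.00766% lower.

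F1 pools gave 11 CG DMCs of 360 (1.00% of all CG), 5 higher and 6 lower (0.458% and 0.542% of all). CHH DMCs in the pools numbered 6 of 8924 (0.00535% of all CHH), 3 higher and 3 lower (0.00256% and 0.00279% of all). No CHG of 2279 was called in F1, where 0.00605% of all CHG were, 0.00266% higher and 0.00339% lower.

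F2 rams gave 7 CG DMCs of 130 (2.19% of all CG), 3 higher and 4 lower (1.10% and 1.09% of all). CHH DMCs numbered 13 of 6204 (0.0266% of all CHH), 7 higher and 6 lower (0.0135% and 0.0132% of all). No CHG of 1554 was called in F2, where 0.0306% of all CHG were, 0.0137% higher and 0.0169% lower. Calls went both ways in each generation, and the contrast that chose the block is the one counted here.

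The calls rest on reads summed over a group, which treats the reads of a ram as independent. When limma was run on single levels instead, 0 CG cytosines were called in any generation, in the block as among all 313527, 294661 and 122453 listed (0%). A difference of 20 points with an unadjusted p under 0.05 was reached there by 17 CG cytosines of the block in F0 (0.588% of all CG), 9 in F1 (0.834%) and 3 in F2 (1.05%). Single samples moved the CHH and CHG count of the block. Of 13 in F0, 6 were called without ram 3 and 8 without ram 10, and in F1 the count went from 6 to 12 without pool 6. The shares of all CHH and CHG cytosines called with the same sample left out are not given, so nothing particular to the block is read from these moves.

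Together the generations gave 55 called positions in the block, of which 42 were called in 1 generation, 10 in 2 and 3 in all 3. Among all 13834 called positions of the series 12270 were called in 1 generation, 1454 in 2 and 110 in all 3. In the block, 29 lay in the last Mb of the block, 12 in the first, and 4, 6 and 4 in the 3 between. The generations differed in this. The last Mb held 21 of the 34 calls in F0, 6 of the 17 in F1 and 9 in F2, and the first Mb held 7, 10 and 4. The last Mb also held 150 of the 375 CG cytosines listed in F0, and 5393 of the 12361 cytosines of all contexts. In F1 it held 5378 of 11563. The 27 called positions that had another within 1 kb came in small groups, such as 118340826, 118340946 and 118341022, and 118344505 and 118344669. Of 28 F0 DMCs that were also listed in F1, 26 differed in the same direction there, where 88.7% of all such DMCs of the series did. Of 10 F0 DMCs listed in F2, 7 had the same direction (65.9% over the series), and of 6 F1 DMCs listed in F2 all 6 did (75.6%) and were called again (280 of 1168 over the series). The block was chosen on this contrast, so nothing is read from these counts. The F1 pools and F2 rams descend from these F0 rams, so the generations are not separate trials of the diet.

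**Figure D1:**
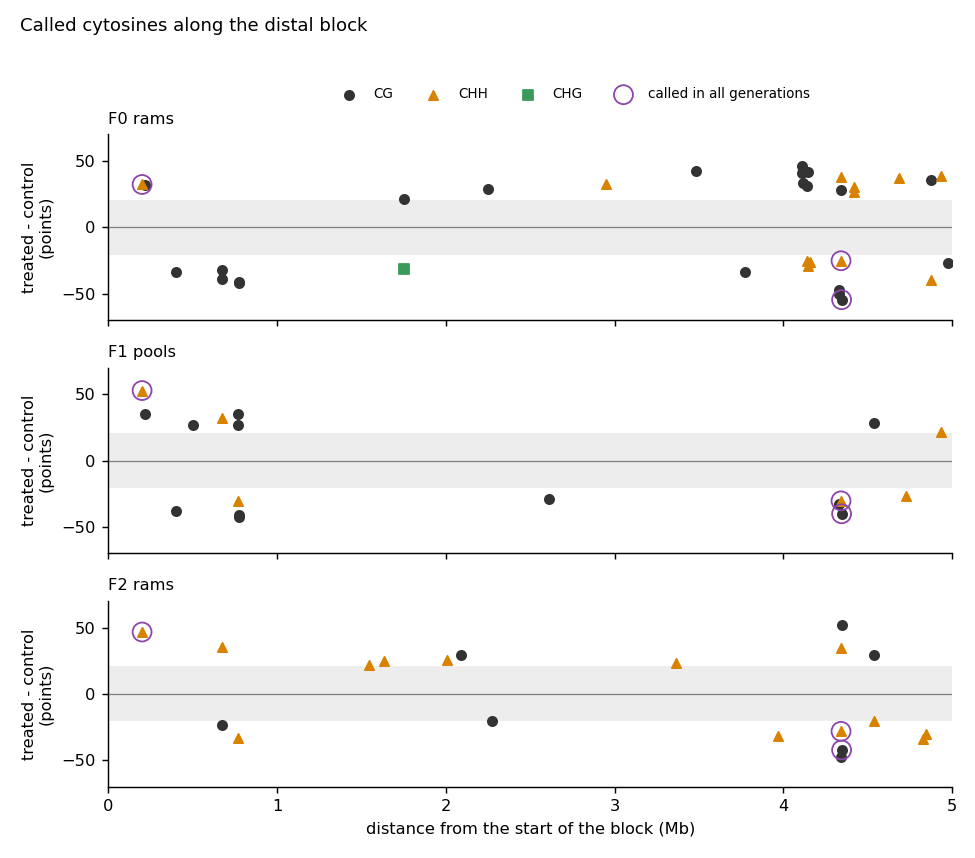
Difference in methylation level between treated and control groups, in percentage points on reads summed over the group, for each called cytosine by its distance in Mb from the start of the block, in F0 rams, F1 pools and F2 rams. Marker shapes give the cytosine context, the grey band holds differences under 20 points, and rings mark the 3 positions called in every generation. Of the 55 positions, 29 lie in the last Mb, which held 5393 of the 12361 cytosines listed in F0. Of the 17 calls in F1, 6 lie there.

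The edges of the block are round positions. The outermost listed CG cytosines inside it in F0 were at 114037987 and 118973468, and the nearest ones outside were at 113988870 and 119009746. The first CG called inside in F0 was 114219070 (31.7 points) and the last was 118973468 (-26.7 points). Just outside, the nearest called CG cytosines in F0 were 113786310 (43.2 points) and 119071458 (29.6 points). Position 113786310 was called in F1 too (42.3 points), and in F2 the nearest call before the block was 16 bases from it, at 113786326 (26 points). Calls of the same kind thus continued past the start of the block.

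The CHH cytosine at 114200299 (minus strand) was higher in the treated group in all 3 generations. By the annotation given with the study, it lies in a HAL1 repeat, a relic of a LINE element, within an intron of STK32B, a protein kinase gene. In F0 the levels of treated rams 3, 5, 9, 11 and 23 were 93.8%, 40.6%, 47.4%, 34.4% and 37.5%, and those of control rams 4, 6, 10, 12 and 24 were 64.3%, 0%, 3.45%, 0% and 0%. The groups overlapped through control ram 4, which was above 4 of the 5 treated rams. The 78 reads of the 3 control rams at 0 allow a level of up to 3.85%. Pools of numbers 3, 5, 9, 11 and 23 had 82.1%, 15.4%, 77.4%, 87.5% and 58.6%, and pools 4, 6, 10, 12 and 24 had 54.2%, 48.3%, 0%, 0% and 0%. Treated pool 5 fell between the control pools. In F2 the lowest, median and highest levels were 36.8%, 65.4% and 100% in treated rams and 0%, 24.5% and 53.3% in control rams. No treated F2 ram was under 10%, while 5 of the 10 control F2 rams were. Means were 50.7% ± 24.5 against 13.5% ± 28.4 in F0, 64.2% ± 29.4 against 20.5% ± 28.1 in F1 (SD, n = 5 each) and 68.9% ± 21.2 against 24.4% ± 24.9 in F2 (n = 10 each). On summed reads the differences were 32.3, 52.8 and 46.7 points.

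The CG cytosine at 118344505 (minus strand), which the annotation of the study puts between genes and outside repeats, was lower in the treated group in all 3 generations. Treated F0 rams 3, 5, 9, 11 and 23 had 0%, 35.7%, 37.5%, 39.3% and 0%, and control rams 4, 6, 10, 12 and 24 had 50%, 97.6%, 88.9%, 97.0% and 47.6%. The groups did not overlap in F0, as was so for 0.575% of all listed CG cytosines. Treated pools had 26.3%, 47.1%, 27.8%, 15.8% and 0%, and control pools had 51.7%, 48.4%, 85.7%, 50% and 71.9%, again without overlap (0.670% of all listed CG). In F2, 8 of 10 treated rams were under 10%, 1 was at 50% and 1, a grandson of ram 9, was at 100%. Among control F2 rams, 7 lay between 30% and 70%, 2 above 80% and 1 under 10%. The F2 groups overlapped, with medians of 0% and 50.9%, and no CG of the block had groups apart in F2 (0.000817% of all listed CG). Means were 22.5% ± 20.6 against 76.2% ± 25.3 in F0, 23.4% ± 17.3 against 61.5% ± 16.5 in F1 (SD, n = 5 each) and 15% ± 33.7 against 54.8% ± 26.6 in F2 (n = 10 each).

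The third position called in every generation was the CHH cytosine at 118341022 (minus strand), 3483 bases before 118344505 and, by the annotation of the study, in an L1ME1 element. It had 27 to 63 reads per ram in F0 and 16 to 75 in F2, where the median over listed CHH cytosines of the block was 24 and 26. What lies behind this coverage was not tested. Treated F0 rams had 0%, 39.0%, 39.5%, 48.1% and 0%, and control rams had 46.0%, 40%, 88.2%, 75.9% and 43.2%, in the order of numbers used above. The rams at 0, numbers 3 and 23, were also those at 0 at 118344505. Treated pools had 12.5%, 40%, 14.5%, 13.9% and 2.17%, and control pools had 34.8%, 28.1%, 45.5%, 73.0% and 52.2%. In F2 the lowest, median and highest levels were 0%, 0% and 69.6% in treated rams and 0%, 39.7% and 94.1% in control rams. The same grandson of ram 9 was again the highest treated ram. On summed reads the differences were -25.2, -30.3 and -28.2 points. Without F0 ram 10 or 23 this position was not called in F0, and without ram 3 or 12 only 118344505 was called in every generation.

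**Figure D2:**
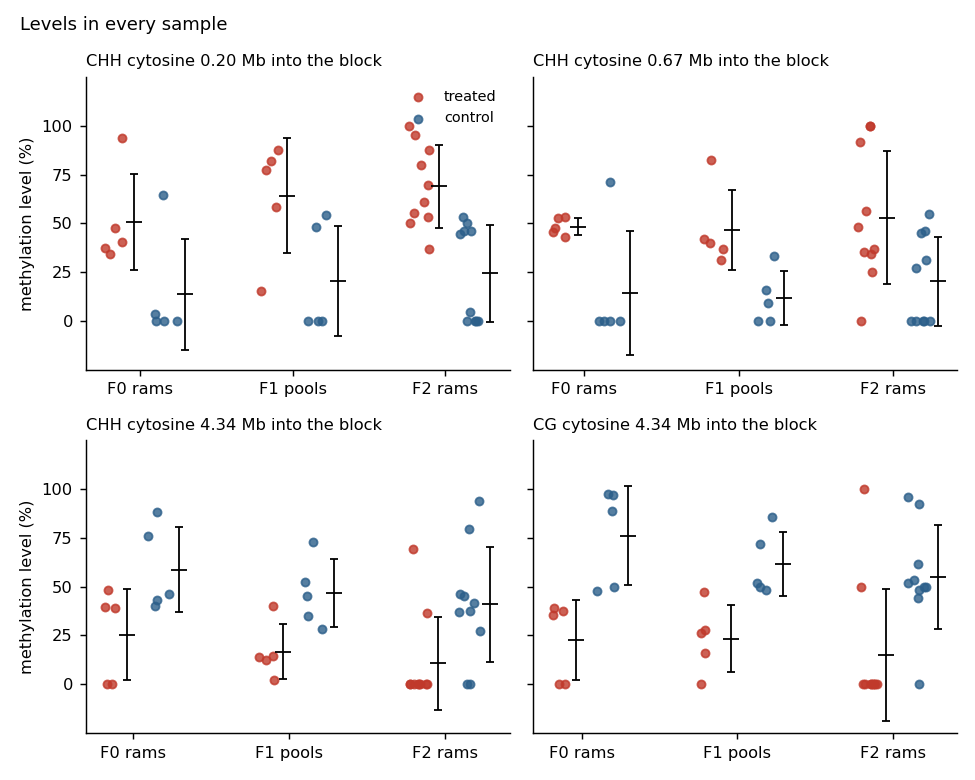
Methylation level in percent in every F0 ram, F1 pool and F2 ram at the 3 cytosines called in all generations and at the CHH cytosine 114672729, each titled by its distance into the block. Red points are the treated and blue points the control group, and black bars give the mean and SD. Many single rams sit near 0%, near 50% or near 100%, and the treated group is the higher one in the upper and the lower one in the lower panels.

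In all, 4 more positions, 114672605, 114672729, 114767513 and 118340826, were listed in all 3 generations and called in 2 of them with the same direction throughout; they are named here after their values were seen. The CHH cytosine 114672729, in an L1ME1 element by the annotation of the study, had 52.6%, 42.9%, 45.5%, 47.4% and 53.3% in F0 treated rams. Among F0 control rams, number 4 had 71.4% and the other 4 had 0%, where 89 reads allow up to 3.37%. Its groups kept apart in F0 but for ram 4, the same ram that stood out at 114200299. In F1 and F2 it was called at differences of 32.1 and 35.5 points. The CHH cytosine 114767513 had a difference of -25 points in F0, not called, and was called at -30.6 and -33.5 points in F1 and F2. The CG cytosine 114672605 was at 0% in every treated F0 ram and in control rams 4 and 10, while control rams 6, 12 and 24 had 56%, 57.7% and 65.5%. In F1 its difference was -10.8 points, not called, with treated pools from 7.41% to 22.2% and control pools from 0% to 64.5%. As a mean over samples the F1 difference was -9.23 points, and 0.67 points without control pool 24. In F2 its level was under 10% in 9 of 10 treated and in 6 of 10 control rams. CHH 118340826 had 87.0%, 51.3%, 34.5%, 34.8% and 57.9% in treated and 26.9%, 3.23%, 0%, 0% and 34.8% in control F0 rams, and was called in F0 (37.7 points) and F2 (34.4 points).

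At several of the other positions named by the largest differences rams again sat near 0, 50 or 100, though not at CG 118340946, where F0 levels spread from 27.6% to 92.5%. In F0 the highest differences in favour of the treated group were at CG 118107386 and CG 117484123. At 117484123 the treated rams had 46.7%, 46.2%, 0%, 52.9% and 63.2% while every control ram was at 0%. At 118107386 the treated F0 rams lay between 32% and 64% and the control rams between 0% and 23.1%, and the difference was 14.5 points in F1, where it was not called. The largest F0 differences the other way were at 118344505 (-54.6 points) and at CG 118331225 (-50.7 points), where rams 3 and 23 had 0% and control rams 6, 10 and 12 had 100%.

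In F1 the largest were 114200299 and CG 114219070 (35.1 points), and, lower in treated pools, the neighbouring CG cytosines 114775977 (-42.8 points) and 114775983 (-41.0 points). Both of these were between 36.4% and 56% in all treated F0 rams and in control ram 4, and at 90.9% or more in the other control rams. CG 114219070 lies, like 114402215, in an intron of STK32B by the annotation of the study. In F2 the largest were CG 118344669 (52.2 points) and 114200299, and, lower in treated rams, CG 118340946 (-47.3 points) and 118344505. At 118344669 the treated F2 rams ran from 0% over a median of 65.4% to 100% and the control F2 rams from 0% over a median of 0% to 71.4%. At 118340946 the treated median was 26.7% and the control median 78.7%, against -10.6 points in F0 and -15.6 points in F1, neither called. As means over samples these 2 differences ran from -24.3 to -9.06 points and from -21.9 to -1.83 points with 1 sample left out.

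Cytosines whose level ranged over at least 50 points between samples of a generation are called variable here. In F0 71 of 375 CG cytosines of the block were variable (18.9%, against 17% of all listed CG), in F1 39 of 360 (10.8% against 11.9%) and in F2 29 of 130 (22.3% against 38%). With them came 29, 21 and 24 variable CHH and 5, 4 and 5 variable CHG cytosines. For CHH and CHG no share over all listed cytosines is given, so these counts are not read as a trait of the block. Of the DMCs, 20 of 21 CG and 12 of 12 CHH in F0 were variable, and in F1 and F2 every called CG and CHH cytosine was. A call needs a difference of at least 20 points between groups, which itself favours a wide range over samples. The share among all called cytosines of the series is not given, so nothing is read from these counts.

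In single rams, levels at variable CHH and CHG cytosines lay mostly under 10%, between 30% and 70% or above 90%. Choosing cytosines by their range itself favours levels that lie far apart. In F0 34.1% of 340 such levels were under 10%, 42.9% were between 30% and 70% and 12.9% were above 90%, and 3.82% lay between 10% and 30%. F2 rams gave 41.4%, 30.9% and 14.7%, with 5.34% between 10% and 30%. In F1 pools, which mix rams, 20% were under 10%, 42.0% between 30% and 70% and 2.40% above 90%, while 22.8% lay between 10% and 30%. At variable CG cytosines in F0 15.5% of 710 levels were under 10%, 42.3% between 30% and 70% and 22.3% above 90%. A further 14.2% of these CG levels lay between 70% and 90%. In single rams, then, few levels lay between 10% and 30%, and in the pools more did.

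Levels of some cytosines that lie close together were closely tied, in one direction or in opposite directions, and those of others were not. In F2 the levels at 118341022 and 118344505 were within 25 points of each other in 18 of 20 rams, with a Pearson r of 0.91 over the 20 rams (0.88 with levels centred on the diet group). In F1 pools the r of this pair was 0.77 (0.46 centred). The pair 118340946 and 118344669, 3723 bases apart, ran opposite ways, with r = -0.95 (-0.91 centred), and the 2 levels added up to within 25 points of 100 in 19 of 20 F2 rams. Levels at CHH 118340826 also mirrored those at 118344505 in F2, with r = -0.92 (-0.88 centred), and r = -0.82 (-0.55 centred) in F1 pools. In F0, CG 118331225 followed 118344505 over 13.3 kb with r = 0.98 over 10 rams. Closer pairs were looser in some generations: 118340946 and 118341022, 76 bases apart, had r = 0.53 in F0, and 114672605 and 114672729, 124 bases apart, had r = -0.77 in F0, -0.29 in F1 and -0.46 in F2. These rams are related and the positions share libraries, so the coefficients describe these samples.

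Some pairs farther apart were tied too. CHH 114200299 and CHH 114672729 lie 472 kb apart, and in F0 their levels were within 25 points in 9 of 10 rams (r = 0.87, and 0.79 centred). Over F1 pools this was so in 6 of 10 (r = 0.68, and 0.38 centred) and over F2 rams in 12 of 20 (r = 0.67, and 0.51 centred). CHH 114672729 and CG 114775977, 103 kb apart, ran opposite ways, with r = -0.91 in F0 rams (-0.95 centred) and -0.92 in F1 pools (-0.80 centred). Across 3565 kb, CG 114775977 and CHH 118341022 had r = 0.94 in F1 pools (0.87 centred) and 0.70 in F0 rams (0.38 centred). CG 114775983, 6 bases from the first of these, gave 0.88 with CHH 118341022 in F1 pools (0.73 centred). The pairs given were picked from all pairs of named positions, most of which were named for their diet differences. Over variable cytosines of any context, 12 of 1149 F1 pairs above 1 Mb had a centred r of at least 0.8, and 7 had -0.8 or less.

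Over all variable CG cytosines of the block, the median absolute r of diet-centred levels was 0.64 for the 17 pairs up to 1 kb apart in F0, 0.58 at 1 to 10 kb, 0.41 at 10 to 100 kb, 0.35 at 100 kb to 1 Mb and 0.31 above 1 Mb. Pairs of a block cytosine and a variable CG of chromosome 7 gave 0.28. By rank correlation the F0 median up to 1 kb was 0.42. F1 pools gave 0.79 up to 1 kb (8 pairs) and 0.31 above 1 Mb, with 0.27 for chromosome 7, and with variable cytosines taken at 30 points the first of these was 0.36 (49 pairs). F2 rams gave 0.52 up to 1 kb (3 pairs), 0.24 at 1 to 10 kb, 0.15 at 10 to 100 kb (24 pairs), 0.23 at 100 kb to 1 Mb and 0.23 above 1 Mb, with 0.19 for chromosome 7. The medians at the shortest distances rest on few pairs, and those above 1 Mb lay close to the values for chromosome 7.

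With CHG and CHH cytosines added, 18 of the 46 pairs up to 1 kb in F0 had a positive r, 7 with an r of at least 0.8 and 8 with an r of -0.8 or less. In F0 close neighbours thus ran opposite ways more often than together, and about equally often at an absolute r of 0.8 or more. Of the 24 such pairs in F1 pools 14 were positive, and of the 10 in F2 rams 4 were.

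**Figure D3:**
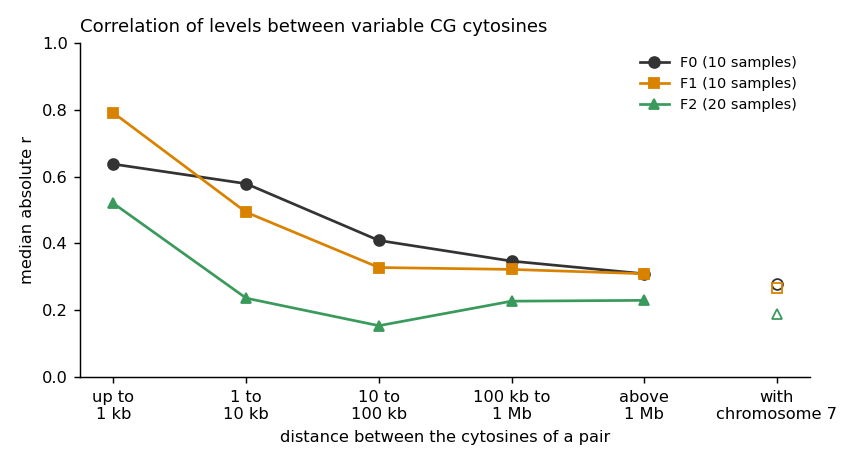
Median absolute Pearson r of diet-centred methylation levels for pairs of variable CG cytosines of the block, by the distance between them, in F0 rams, F1 pools and F2 rams. Open symbols on the right are pairs of a block cytosine and a variable CG cytosine of chromosome 7. In F0 the median falls from 0.64 up to 1 kb to 0.31 above 1 Mb, beside 0.28 for chromosome 7.

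Family structure was tested by comparing samples of 1 diet group with each other, except for F0 rams of consecutive numbers, which are always 1 treated and 1 control ram. The cytosines were those variable over both diets, so DMCs are among them. The measure was the mean absolute difference of levels over these CG cytosines, between samples that carry the number of the same F0 ram and, in comparison, samples of other numbers. In all, 4 such tests were run, and adjusted values are Benjamini-Hochberg over them. The F0 ram and the F1 pool of its number differed by 16.8 points on average over 54 cytosines, and a ram and another pool of its diet by 23.4 points, a gap of -6.56 points (exact permutation test over 14400 assignments, two-sided, p = 0.000139, adjusted p = 0.000556). All 10 rams were closer to their own pool than to the other pools on average. At the 30 variable CHH and CHG cytosines the gap was -9.31 points (exact p = 6.94e-05, the smallest these assignments can give).

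The 2 F2 rams of 1 F0 ram differed by 20.4 points over 29 variable CG cytosines and rams of different F0 numbers by 24.4 points (gap of -3.93 points, exact permutation test over 893025 pairings, p = 0.0147, adjusted p = 0.0293). The pair was closer than the average to other rams in 7 of 10 families. At variable CHH and CHG cytosines the gap was -0.63 points (exact p = 0.785), so the resemblance of F2 pairs was not detected there.

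F2 rams differed from their own F0 grandsire by 19.9 points over 20 variable CG cytosines and from other F0 rams of the diet by 22.3 points (gap of -2.40 points, exact permutation test, p = 0.0358, adjusted p = 0.0477). This was so in 8 of 10 families. The call did not hold on leaving out number 3 (gap of -1.92 points, exact p = 0.0976), 6 (-1.65, exact p = 0.107), 9 (-2.37, exact p = 0.0840), 12 (-2.31, exact p = 0.0771) or 24 (-2.12, exact p = 0.109).

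F0 rams of consecutive numbers (3 and 4, 5 and 6, 9 and 10, 11 and 12, 23 and 24), taken as candidate twins because the labels name none, differed by 32.0 points at 71 variable CG cytosines, and treated and control rams not so matched by 30.6 points (gap of 1.41 points, exact permutation test over 120 matchings, p = 0.617, adjusted p = 0.617). With 5 pairs the smallest p such a test can give is 0.00833.

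**Figure D4:**
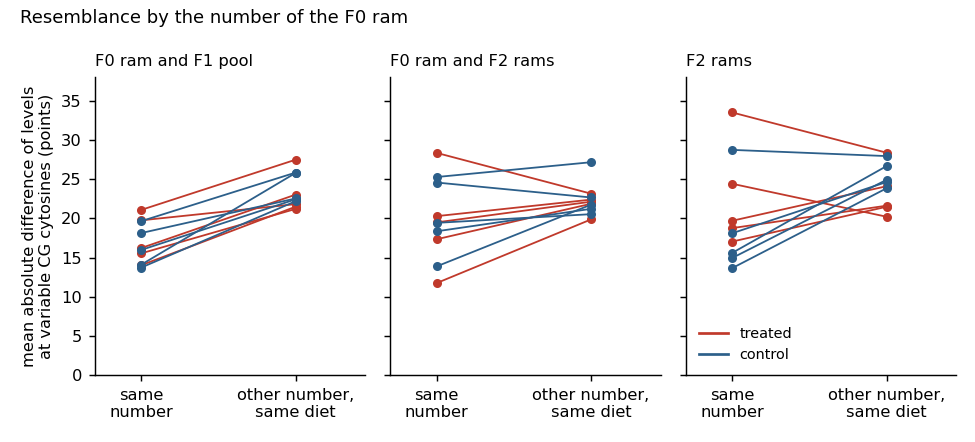
Mean absolute difference of methylation levels, in points over variable CG cytosines of the block, between samples of the same F0 number and samples of other numbers of the same diet, for F0 rams and F1 pools, F0 rams and F2 rams, and pairs of F2 rams. Each line is the family of 1 F0 ram, red for treated and blue for control. All 10 lines rise in the first panel, 8 of 10 in the second and 7 of 10 in the third.

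The slope on the F0 ram gives the size of the resemblance. Within diet groups, a difference of 1 point between F0 rams at a variable CG cytosine went with 0.39 points between the pools of their numbers (49 cytosines, 0.36 to 0.41 on leaving out 1 family) and with 0.20 points between the means of their F2 pairs (13 cytosines, 0.15 to 0.28). At variable CHH and CHG cytosines the slopes were 0.42 (28 cytosines) and 0.22 (15 cytosines). These slopes rest on different cytosines in F1 and F2, and the difference between them was not tested.

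Single families show what these averages hold. At 114200299 the family of ram 3 had 93.8% in the F0 ram, 82.1% in the pool and 80% and 95.5% in its F2 rams, and the family of ram 12 had 0% in the ram, the pool and both F2 rams. In the family of ram 10 the F0 ram had 3.45%, the pool 0% and the F2 rams 46.2% and 50%. At 118344505 the family of ram 9 had 37.5% in the ram, 27.8% in the pool, and 100% and 0% in the F2 rams. The family of ram 12 had 97.0%, then 50% in the pool, then 95.8% and 0%. At this position the F2 rams of the pairs from rams 9 and 12 lay near opposite ends of the scale, while both rams of the pairs from rams 3, 5 and 11 were at 0%.

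**Figure D5:**
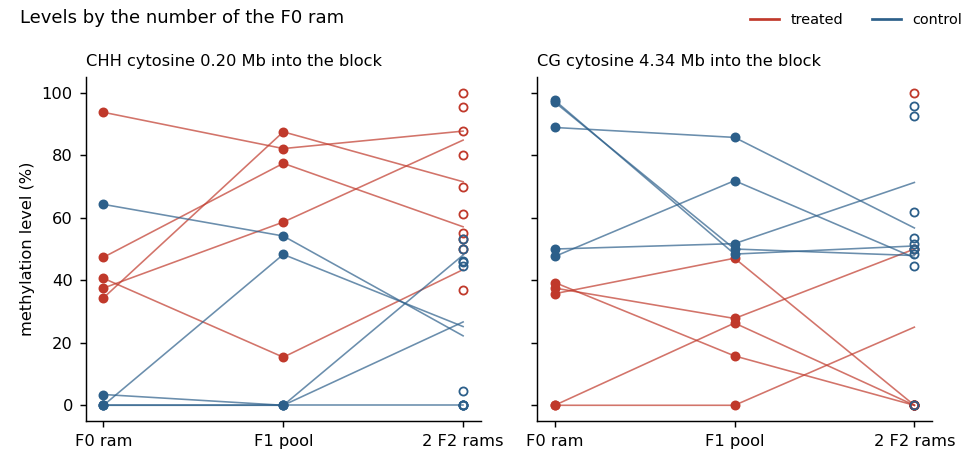
Methylation level in percent at the CHH cytosine 114200299 (left) and the CG cytosine 118344505 (right) in the F0 ram, the F1 pool and the 2 F2 rams of each F0 number. Filled points are rams or pools, open points single F2 rams, and lines end at the mean of the F2 pair, red for treated and blue for control. At 118344505 all treated F0 rams and pools lie below 47.1%, or at it, and all controls above.

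RNA of F2 semen was not used to choose the block. The libraries held from 805831 to 13137757 counts. All 9 sperm and spermatid markers found in the counts, such as PRM1, which packs sperm DNA, had reads in every library, and so did all 5 leukocyte markers. Levels are given as CPM, counts scaled to library sizes that were adjusted by TMM factors. The summed level of the sperm list ran from 155 to 4342 CPM in treated and from 83.0 to 4326 CPM in control rams. That of the leukocyte list ran from 38.5 to 3314 CPM in treated and from 31.5 to 13247 CPM in control rams. The 3 of 5 squamous epithelium markers in the counts summed to between 11 and 198 CPM in treated and between 14.4 and 56.6 CPM in control rams. In such bulk samples fewer cells of a type and less RNA per cell cannot be told apart, and the part of these cells in the values below was not tested. Before extraction the samples had been treated with a buffer that lyses somatic cells.

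No gene passed the test between the F2 diet groups. Of 13577 genes tested with edgeR, 0 were called at an adjusted p of 0.05 (0% of all), 104 had an unadjusted p under 0.05, and DESeq2 called 0 with 174 under that level. Without an annotation of the build used, the genes were taken from a list of 23, STK32B and genes near it, and in the order of the ARS-UI_Ramb_v3.0 annotation 19 of them were found on chromosome 6, STK32B itself, 5 before it and 13 after it. Of the 23, 20 were in the counts and 12 passed the filter of 15 counts in more than 10 rams. None of them was called and none had an unadjusted p under 0.05 with edgeR, with DESeq2, without the filter (20 genes tested) or without scaling. The study places STK32B inside the block near its start, so genes at lower positions have little of the block to lie in. The other genes found on chromosome 6 are tied to the block by their order around STK32B alone. JAKMIP1, which was tested, was not found there by symbol. Which of these other genes lie inside the block was not tested.

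STK32B, the gene that holds 114200299, ran from 1.46 over a median of 4.02 to 14.3 CPM in treated rams and from 1.20 over 5.54 to 16.5 CPM in control rams. The ranges overlapped almost fully, and the log2 ratio of treated over control was -0.29 ± 0.43 (SE, n = 10 each; edgeR adjusted p = 1.00). The 12 ratios lay between -0.43 and 0.25, 8 below and 4 above 0, with a median of -0.24 where the median over all genes tested was -0.05. Among the 12, EVC, EVC2, CRMP1, WFS1 and PPP2R2C come before STK32B, and JAKMIP1 was not found on the chromosome. The lowest ratios, of CRMP1, EVC, JAKMIP1 and EVC2, are among these, so the median is not read as one of the block. The sign of 4 of the 12 (PPP2R2C, STX18, WDR1 and WFS1) turned without scaling beyond library size.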

How the data were processed

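Whole-genome bisulfite sequencing covered semen of 10 F0 rams and 20 F2 rams and 10 F1 pools, and RNA sequencing covered 20 F2 semen samples. Per the labels, the authors used Trim Galore, Bismark and Bowtie2 for bisulfite reads and Trimmomatic and STAR for RNA, on the Oar_rambouillet_v1.0 assembly. The deposited tables give, per cytosine and sample, counts of all reads, of reads with C and of reads with T, limited to cytosines that reach 10 reads in each sample of the generation; the 120 columns of T counts were not used. The deposited RNA table holds raw counts per gene. Levels were computed here as C reads over all reads.

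Groups followed the labels. DMCs were called per cytosine by a likelihood-ratio test on reads summed over each group, after logistic regression, with Benjamini-Hochberg adjustment over all listed cytosines of a context and generation, at 20 points and 0.01. Family tests were exact permutation tests within diet groups, or, for F0 rams of consecutive numbers, over matchings of treated with control rams, and the comparison of F1 with F0 used 100000 resamples. RNA was tested with edgeR 4.0.16 (quasi-likelihood, TMM) and, as an alternative, DESeq2 1.42.0; limma 3.58.1 was run on CG levels. Scripts were tested on simulated data. For the DMC calls these data held no spread between rams, so they do not show how the calls behave with such spread. Where a level is 0, the upper limit is 3 reads of the total and covers counting error only. F0 and F2 replicates are single rams, F1 replicates are pools, and some samples are related. The p-values of the DMC calls measure the counting error of summed reads and not the spread between rams or pools. The other p-values measure only the spread between these samples. Reads without molecular identifiers are not independent molecules.

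Named cytosines were those called in all 3 generations, plus, per generation, the 2 called ones with the largest differences in each direction; 4 more, called in 2 generations and listed in all 3, were added after their values were seen. Of the genes near STK32B values are printed for STK32B alone. The members, lists and tests were chosen with earlier results of these data known. Sequences around the cytosines were not used here.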

Additional observations from a re-analysis of the deposited data

Results flagged for a closer look

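Among 78 groups examined at the named cytosines, for the mean CG level of the block and for STK32B, a single sample stood apart from the rest of its group, relative to the range of the group, 12 times. The critical values used are set so that chance alone gives about 1 group in 20 when values are normally distributed, which levels gathered near a few values are not. Control ram 4 of F0 stood apart at 4 positions: it was the highest control at CHH 114200299 (64.3%) and CHH 114672729 (71.4%) and the lowest at CG 114775977 (56%) and CG 114775983 (53.8%), each time on the side of the treated rams. Treated ram 3 was the highest of its group at CHH 114200299 (93.8%), treated ram 9 the lowest at CG 117484123 (0%), and control ram 10 the highest at CG 118107386 (23.1%). In F1, treated pool 23 was the highest at CHH 114672729 (82.4%).

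In F2, 1 grandson of treated ram 9 stood apart at 3 positions within 3679 bases, as the highest treated ram at CG 118344505 (100%) and CHH 118341022 (69.6%) and the lowest at CHH 118340826 (0%). The other grandson of ram 9 in the data was the highest at CG 114672605 (52.6%). Positions of these groups go together along the block, so these cases are not independent of each other.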

How the results depend on the processing

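Requiring 20 reads in every sample left 3 CG and 6 CHH and CHG DMCs of the block in F0. It left 3 and 1 in F1, and 0 and 0 in F2, with 0 positions called in every generation. This setting tests fewer cytosines. The share of all listed cytosines called at it is not given, so these counts are not read against the series. Limma on levels gave 0 CG DMCs in F0, 0 in F1 and 0 in F2, in the block as over all CG cytosines. In F0, leaving out 1 sample gave 18 to 29 CG and 6 to 16 CHH and CHG DMCs, and in F1 10 to 12 and 4 to 12. From 1 to 4 positions were then called in every generation. F2 rams, 10 per group, were not left out. For these counts too the shares over all listed cytosines are not given. The mean CG difference between diets ran from -1.27 to -0.11 points in F0 and from -1.30 to -0.42 in F1 with 1 sample left out, and with 20 reads required its sign turned in F0 (0.18) and F2 (-0.71), within the SD.

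Same-numbered F0 rams and F1 pools deviated together over the 288 shared CG cytosines (r of 0.045 to 0.547). For each but number 11, the own pool had the highest r among the pools of its diet. Number 11 keeps the numbers from counting as a pairing by the limit of 0.1. The replicate block, which pairs rams and pools by number, cannot change the F1 minus F0 difference of -0.25 points. Only the p could change (exact sign-flip p = 0.676). The difference ran from -0.49 to 0.0779 points with 1 number left out, the latter without number 3.

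Leaving out 1 family gave gaps of -7.40 to -5.92 points for rams and pools, -2.99 to -1.65 for F2 rams and their grandsires, and 0.13 to 2.75 for consecutive F0 numbers. With CHH and CHG cytosines the gaps were -0.63 for F2 pairs, -3.36 for F2 rams and grandsires (exact p = 0.0717) and -0.13 for consecutive numbers, whose sign turned. With variable cytosines taken at 70 points, F2 rams and grandsires gave -3.60 (exact p = 0.118).

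The median absolute r up to 1 kb was 0.42 by rank correlation and 0.48 with variable cytosines taken at 30 points in F0, 0.36 at 30 points and 0.64 with all contexts in F1, and 0.40 without centring in F2. All contexts and sums of reads at named cytosines were added after seeing the data. The cause of these changes was not tested. The other 144 alternatives kept the side of the threshold or, without a test, stayed within the spread. For single cytosines and correlations beyond 1 kb 349 did so and 6 correlations moved by more; CG 114672605 in F1, not called, turned from -9.23 to 0.67 points without control pool 24.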
